A study of Mus musculus with 24 samples.

Results

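The genes described here encode components of 3 neurohormonal systems of the heart, the angiotensin, endothelin and adrenergic systems. They were listed by symbol as Ace, Agt, Agtr1a, Edn1, Ednra, Ednrb, Adrb1, Adra1a and Adra1b, and were measured on the study's Affymetrix arrays through the probe sets annotated to those symbols. Of these 9 genes, 6 have a probe set named in the annotation used, with 9 probe sets in all, out of 45101 on the array. Ednra, Adrb1 and Adra1a were not analysed here. Of the 6, 5 passed the filter on dim signals and were tested among 14763 genes, and Agt did not pass it.

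The hearts came from FVB/N mice in 6 groups of 4 arrays. The caPI3K mice carry a transgene that raises the activity of PI3K, the dnPI3K mice carry a heart-specific transgene that lowers it, and the Ntg mice carry neither. Which promoters drive the transgenes is not given in these labels. Mice of each genotype were operated on at the age of 4 months, with a myocardial infarction (MI) or a sham operation, and their hearts were collected after 8 weeks. The labels say that hearts were homogenized one by one, but not that each array is a separate animal, so the p-values measure only the spread between these arrays, which may be technical.

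Angiotensinogen, encoded by Agt, is cut by renin and then by the converting enzyme Ace into angiotensin II. That peptide constricts vessels and drives growth and fibrosis in the heart through type 1 receptors, encoded in mice by Agtr1a and Agtr1b. Endothelin-1, encoded by Edn1, is a constrictor peptide that acts on the Ednra and Ednrb receptors. Adra1b is an alpha-1 adrenergic receptor that couples noradrenaline to the Gq pathway, and Adra1a and Adrb1 are the other main catecholamine receptors of heart muscle. All 3 systems are activated after infarction, and drugs against the first and the last are standard treatment of heart failure.

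All arrays were scaled to a trimmed mean signal of 500, and median signals lay between 103 and 119 except on dnPI3K MI replicate 1, at 151. On caPI3K sham replicates 1 to 3 the mean of the Y-linked genes exceeded Xist, as on no other array, so most of that group differs from the rest in this respect. Ntg sham replicate 4 also stood apart, with a summed signal of 57697 over 5 atrial muscle markers, against 13433 to 22859 on the other Ntg sham arrays and 52184 to 60350 on the Ntg MI arrays. Cardiomyocyte markers lay above the 96.3 percentile of signals on every array. Member values are given with and without these arrays where a call changes. Called pathway genes and marker counts were refitted without the same arrays after the data had been seen, and the calls lost are given beside them. In RNA from whole tissue, fewer cells of a type and less RNA per cell cannot be told apart.

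Values below are log2 of signal plus 11.2, and differences are in those log2 units. A gene is called when its adjusted p from limma over all genes is below 0.05. Where groups are said not to overlap, all genes are the background: MI and sham arrays did not overlap for 9.4% of them in caPI3K, 13.4% in dnPI3K and 4.72% in Ntg hearts. For caPI3K against dnPI3K the share was 10% after MI and 16.7% after sham. Against Ntg MI hearts it was 3.62% for caPI3K and 7.93% for dnPI3K MI hearts. Against Ntg sham hearts it was 5.61% for caPI3K and 5.63% for dnPI3K sham hearts. After MI, Ednrb was called as higher and Agtr1a as lower in dnPI3K hearts, and Edn1 as higher in caPI3K hearts. The Agtr1a and Edn1 calls were each lost when certain single arrays were left out. In caPI3K hearts most sham arrays and no MI array had Y-linked signal above Xist, and the part of this difference was not tested. Averaged over the 3 genotypes, 4 of the 5 tested members were called after MI, against 13.6% of all genes. Ace and Ednrb were called as higher and Agtr1a and Adra1b as lower. The averaged Ace call was kept in 35 of 36 alternative fits and the averaged Adra1b call in 29 of 36. Between genotypes Adra1b was the only member called, and it was higher in caPI3K than in dnPI3K hearts after either operation. The call after sham was lost without the sham arrays numbered 415 to 418. Most caPI3K arrays in that comparison had Y-linked signal above Xist, and the part of this was not tested.

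**Figure D1:**
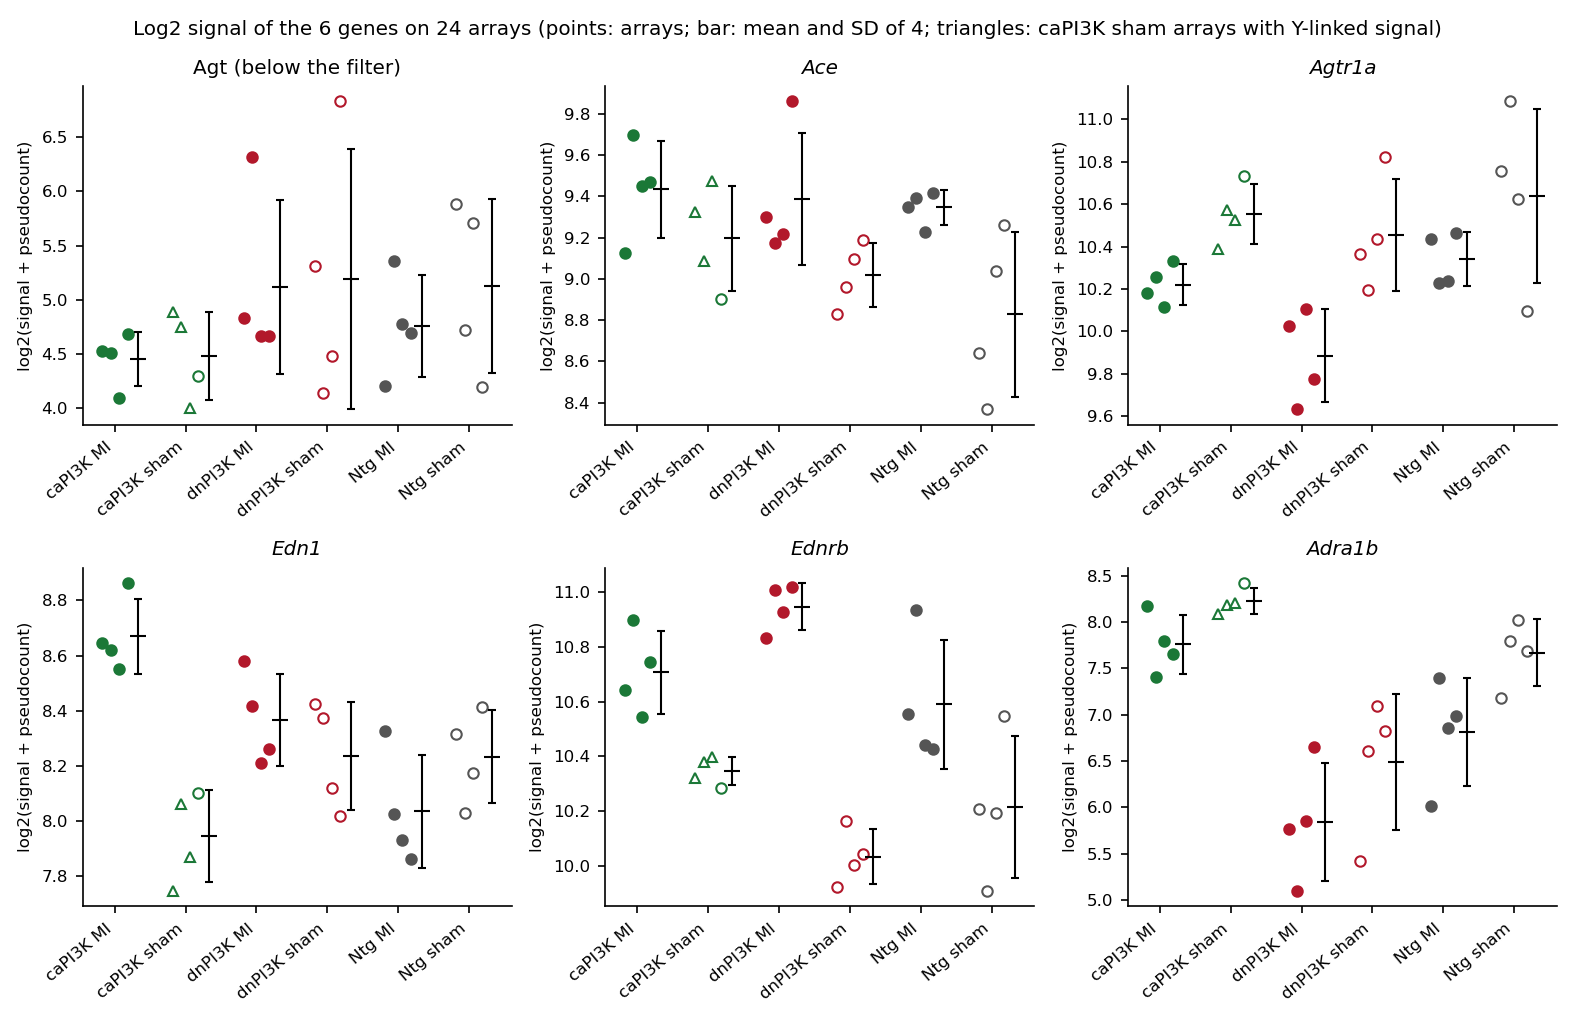
Log2 signal of the 6 genes with a probe set on each of 24 arrays, by group. Points are arrays (filled after MI, open after sham; triangles are the caPI3K sham arrays with Y-linked signal above Xist), and the bar beside each group is the mean with the SD of 4 arrays. Ednrb on the dnPI3K MI arrays lies between 10.83 and 11.02, above the dnPI3K sham arrays at 9.92 to 10.16.

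The promoters of Ednrb, Edn1 and Adra1b are shown because Ednrb was called after MI in dnPI3K hearts, Edn1 after MI in caPI3K hearts and Adra1b between genotypes. No window is shown for Agtr1a, which was also called in dnPI3K hearts. Each window is the 250 bases before an annotated start in RefSeq's GRCm38.p6 table, read 5′ to 3′ on the gene's strand. The Ednrb window lies within that gene's annotated span (103814615 to 103844508), so its start is not the outermost one. Capitals mark matches on either strand to TATAAA for the TATA box, CCAAT for the CCAAT box, GGGCGG for the GC box, AGATAA for GATA factors, TGANTCA for AP-1, TGACGT for CREB or GTAAACA for FoxO. No match overlaps another.
Ednrb (chr14:103843702-103843951, minus strand): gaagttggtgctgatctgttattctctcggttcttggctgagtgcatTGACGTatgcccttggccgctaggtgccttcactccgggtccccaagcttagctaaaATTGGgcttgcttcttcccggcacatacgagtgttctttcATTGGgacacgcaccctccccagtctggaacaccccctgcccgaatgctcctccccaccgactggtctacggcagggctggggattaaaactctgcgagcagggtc
Edn1 (chr13:42301226-42301475, plus strand): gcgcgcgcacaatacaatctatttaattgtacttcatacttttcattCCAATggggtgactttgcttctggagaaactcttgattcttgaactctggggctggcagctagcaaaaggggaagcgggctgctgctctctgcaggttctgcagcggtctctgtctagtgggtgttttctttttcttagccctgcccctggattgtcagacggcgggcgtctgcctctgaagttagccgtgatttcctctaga
Adra1b, proximal start (chr11:43836490-43836739, minus strand): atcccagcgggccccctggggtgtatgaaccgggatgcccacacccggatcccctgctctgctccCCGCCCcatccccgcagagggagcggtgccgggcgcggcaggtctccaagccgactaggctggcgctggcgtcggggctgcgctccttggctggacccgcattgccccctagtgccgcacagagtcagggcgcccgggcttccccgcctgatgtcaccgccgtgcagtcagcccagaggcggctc
Adra1b, distal start (chr11:43901238-43901487, minus strand): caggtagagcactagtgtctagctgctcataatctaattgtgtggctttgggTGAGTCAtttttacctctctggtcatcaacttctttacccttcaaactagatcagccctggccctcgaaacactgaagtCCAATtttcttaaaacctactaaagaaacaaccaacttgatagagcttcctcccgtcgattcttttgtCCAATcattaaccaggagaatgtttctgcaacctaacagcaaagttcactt

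The Ednrb window holds 2 CCAAT boxes and 1 CREB motif, and the Edn1 window holds 1 CCAAT box. Of the 32851 windows in the table, 33.8% hold a CCAAT box and 6.47% a CREB motif. The distal Adra1b start, at 41.6% GC, has 2 CCAAT boxes and 1 AP-1 motif, which 6.75% of windows hold. The proximal start of that gene, at 72.8% GC, has 1 GC box, found in 32.7% of windows. None of the 4 windows holds the FoxO letters, which 3.17% of windows hold, the GATA letters (9.99%) or the TATA letters (12.4%). These matches describe letters in these windows only.

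The angiotensin genes are described first, from substrate to receptor. Agt, the substrate, was dim on nearly all arrays, above the 40th percentile of its array on 1 of 24. Its levels ran from 4.10 to 4.68 in caPI3K MI and 4.00 to 4.88 in caPI3K sham hearts, 4.66 to 6.32 in dnPI3K MI and 4.14 to 6.83 in dnPI3K sham hearts, and 4.21 to 5.36 in Ntg MI and 4.19 to 5.88 in Ntg sham hearts. The groups overlapped throughout, and Agt was not tested.

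Ace encodes the enzyme that makes angiotensin II and degrades bradykinin. In caPI3K hearts its levels were 9.12, 9.69, 9.45 and 9.47 after MI, against 9.32, 9.08, 9.47 and 8.90 after sham. In dnPI3K hearts they were 9.30, 9.17, 9.22 and 9.86 after MI, against 8.83, 8.96, 9.09 and 9.19 after sham. The Ntg hearts had 9.35, 9.39, 9.23 and 9.41 after MI, against 8.64, 8.37, 9.04 and 9.26 after sham. MI arrays tended to lie higher in each genotype, with overlap in all 3. The MI effect was +0.24 in caPI3K (SE 0.17), +0.37 in dnPI3K (SE 0.17) and +0.52 in Ntg hearts (SE 0.17), none called. Without Ntg sham replicate 4 the Ntg effect was +0.66, with an adjusted p of 0.0248. Averaged over genotypes it was +0.37 (SE 0.10, 1.30-fold, limma adjusted p 0.0114). Without the sham arrays numbered 415 to 418, which are 2 of 4 Ntg sham and 2 of 4 dnPI3K sham arrays, the averaged effect was +0.23 with an adjusted p of 0.224.

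A second Ace probe set, 1427034_at, followed the one used, 1451911_a_at, only loosely (r = 0.41 over 24 arrays). It gave 9.09, 9.43, 8.94 and 9.17 in dnPI3K MI hearts, against 7.78, 8.31, 8.80 and 8.20 in dnPI3K sham hearts. These groups did not overlap, and the difference was +0.88 (SE 0.20, limma over all probe sets, adjusted p 0.0089). Averaged over genotypes the second probe set gave +0.51 (SE 0.11, adjusted p 0.005). Both probe sets thus gave a higher averaged level after MI. For the sham hearts they differed in direction: caPI3K against Ntg was +0.37 on the first and −0.30 on the second, and dnPI3K against Ntg +0.19 and −0.33, none of them called.

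Agtr1a, an angiotensin II receptor, had levels of 10.03, 9.63, 10.11 and 9.78 in dnPI3K MI hearts, against 10.36, 10.20, 10.43 and 10.82 in dnPI3K sham hearts. Every dnPI3K MI array was below every dnPI3K sham array. The difference was −0.57 (SE 0.15, 1.48-fold lower, limma adjusted p 0.0152). It lost the call without dnPI3K sham replicate 4 (−0.45, adjusted p 0.0783) or without dnPI3K MI replicate 2 (−0.48, adjusted p 0.0634), and without dnPI3K MI replicate 1, the array with the high median, it was −0.61 with an adjusted p of 0.0181.

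In caPI3K hearts Agtr1a was 10.18, 10.26, 10.11 and 10.33 after MI, against 10.39, 10.57, 10.53 and 10.73 after sham. These arrays did not overlap either, and the effect was −0.33 (SE 0.15, adjusted p 0.357). Ntg hearts had 10.44, 10.23, 10.24 and 10.46 after MI, against 10.76, 11.09, 10.62 and 10.10 after sham. Replicate 4 was the lowest Ntg sham array and lay under all Ntg MI arrays. The Ntg effect was −0.30 (SE 0.15, adjusted p 0.435), and −0.48 (adjusted p 0.0362) without that replicate. Averaged over genotypes Agtr1a fell by 0.40 (SE 0.09, 1.32-fold lower, limma adjusted p 0.0021). Between genotypes no Agtr1a difference was called. In MI hearts it was −0.46 for dnPI3K against Ntg (SE 0.15, adjusted p 0.115) and +0.34 for caPI3K against dnPI3K (SE 0.15, adjusted p 0.254), both without overlap. For caPI3K against Ntg MI hearts it was −0.12, with overlap. In sham hearts it was +0.10 for caPI3K against dnPI3K, −0.08 for caPI3K against Ntg and −0.19 for dnPI3K against Ntg, all with overlap.

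**Figure D2:**
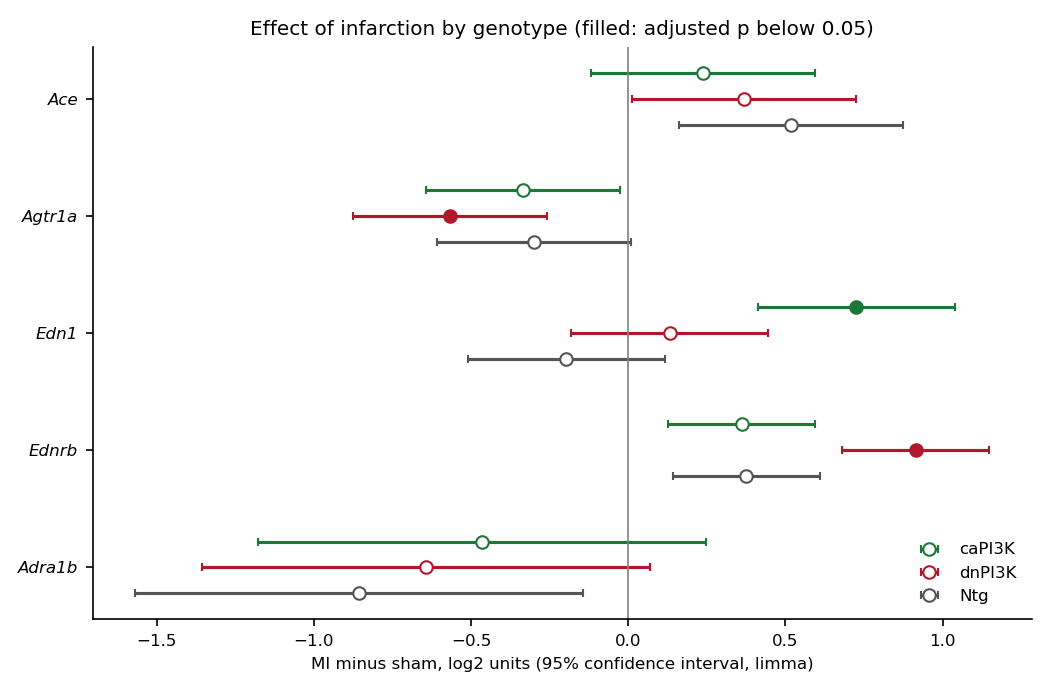
Difference of MI minus sham in log2 units for the 5 tested genes in caPI3K, dnPI3K and Ntg hearts, with 95% confidence intervals from limma. Filled points are called: Agtr1a at −0.57 and Ednrb at +0.91 in dnPI3K hearts, and Edn1 at +0.72 in caPI3K hearts.

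Of the endothelin genes, Edn1 encodes the peptide itself. Its levels were 8.64, 8.62, 8.55 and 8.86 in caPI3K MI hearts, against 7.75, 8.06, 7.87 and 8.10 in caPI3K sham hearts. The 4 caPI3K MI arrays lay above all 4 sham arrays with a gap, and the difference was +0.72 (SE 0.15, 1.65-fold, limma adjusted p 0.0133). In dnPI3K hearts Edn1 was 8.58, 8.42, 8.21 and 8.26 after MI, against 8.42, 8.37, 8.12 and 8.02 after sham. Ntg hearts had 8.33, 8.02, 7.93 and 7.86 after MI, against 8.32, 8.03, 8.17 and 8.41 after sham. These groups overlapped, with effects of +0.13 (SE 0.15) in dnPI3K and −0.20 (SE 0.15) in Ntg hearts.

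The Edn1 call in caPI3K hearts depends on the arrays compared. With a term for array numbers under 1000 it was +0.62 with an adjusted p of 0.0938. Without caPI3K sham replicate 1 (+0.66, adjusted p 0.0586) or caPI3K MI replicate 4 (+0.66, adjusted p 0.0697) it was also lost. Without the caPI3K sham arrays with Y-linked signal, which leaves 1 sham array assumed to vary like the other groups, it was +0.57 with an adjusted p of 0.674. All 21 alternatives kept the positive sign and 17 of them the call.

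The MI effect on Edn1 was larger in caPI3K than in Ntg hearts by 0.92 (SE 0.22, unadjusted p 0.0002), which ranked 7 among 14763 genes for that difference, but the adjusted p was 0.464. Against dnPI3K hearts it was larger by 0.59 (SE 0.22, adjusted p 0.317). After MI, Edn1 was higher in caPI3K than in Ntg hearts on every array, by 0.63 (SE 0.15, adjusted p 0.265). The difference between genotypes was therefore not called.

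Ednrb, the receptor that on endothelium triggers nitric oxide release and clears endothelin-1, had the smallest adjusted p of any member for MI against sham. Its levels were 10.83, 11.01, 10.93 and 11.02 in dnPI3K MI hearts, against 9.92, 10.16, 10.00 and 10.04 in dnPI3K sham hearts. The tight groups lay well apart, and the difference was +0.91 (SE 0.11, 1.88-fold, limma adjusted p 4.3e-05), rank 5 by p among 14763 genes. The call held in all 21 alternatives, between +0.60 and +0.96, none of which used the third probe set, described below, alone.

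In caPI3K hearts Ednrb was 10.64, 10.90, 10.54 and 10.75 after MI, against 10.32, 10.38, 10.40 and 10.29 after sham. No caPI3K array overlapped the other group, and the difference of +0.36 (SE 0.11) had an adjusted p of 0.131, or 0.0382 when those groups alone were fitted. In Ntg hearts the levels were 10.55, 10.94, 10.44 and 10.43 after MI, against 10.21, 9.91, 10.19 and 10.55 after sham. Replicate 4 was again the Ntg sham array within the MI range, and the effect was +0.37 (SE 0.11, adjusted p 0.133), or +0.49 (adjusted p 0.0078) without it. Averaged over genotypes Ednrb was higher after MI by 0.55 (SE 0.07, 1.46-fold, limma adjusted p 1.9e-06).

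The MI effect on Ednrb was larger in dnPI3K than in Ntg hearts by 0.54 (SE 0.16, adjusted p 0.504). It was smaller in caPI3K than in dnPI3K hearts by 0.55, a difference of −0.55 (SE 0.16) with an adjusted p of 0.19, or 0.0428 with only those 4 groups fitted. In sham hearts Ednrb was 0.31 higher in caPI3K than in dnPI3K (SE 0.11, adjusted p 0.0846, or 0.0255 with only those groups fitted), with no overlap. In dnPI3K MI against Ntg MI hearts it was +0.36 (SE 0.11, adjusted p 0.0985), and +0.47 (adjusted p 0.0234) without Ntg MI replicate 2. The sizes of the MI effect were thus not called as different with all groups in the model.

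Of the other Ednrb probe sets, 1426314_at followed the one used, 1437347_at, at r = 0.94 over 24 arrays. It read 9.45, 9.37, 9.35 and 9.36 in dnPI3K MI hearts, against 8.50, 8.67, 8.31 and 8.51 in dnPI3K sham hearts, a difference of +0.89 (SE 0.13, limma over all probe sets, adjusted p 0.0003). The third, 1423594_a_at, correlated at 0.40 with the first and gave −0.01 (SE 0.27) for the same comparison. On it dnPI3K MI replicate 1 read 7.30 and the other dnPI3K MI arrays 8.48 to 8.54. So the rise was seen on 2 of 3 probe sets.

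**Figure D3:**
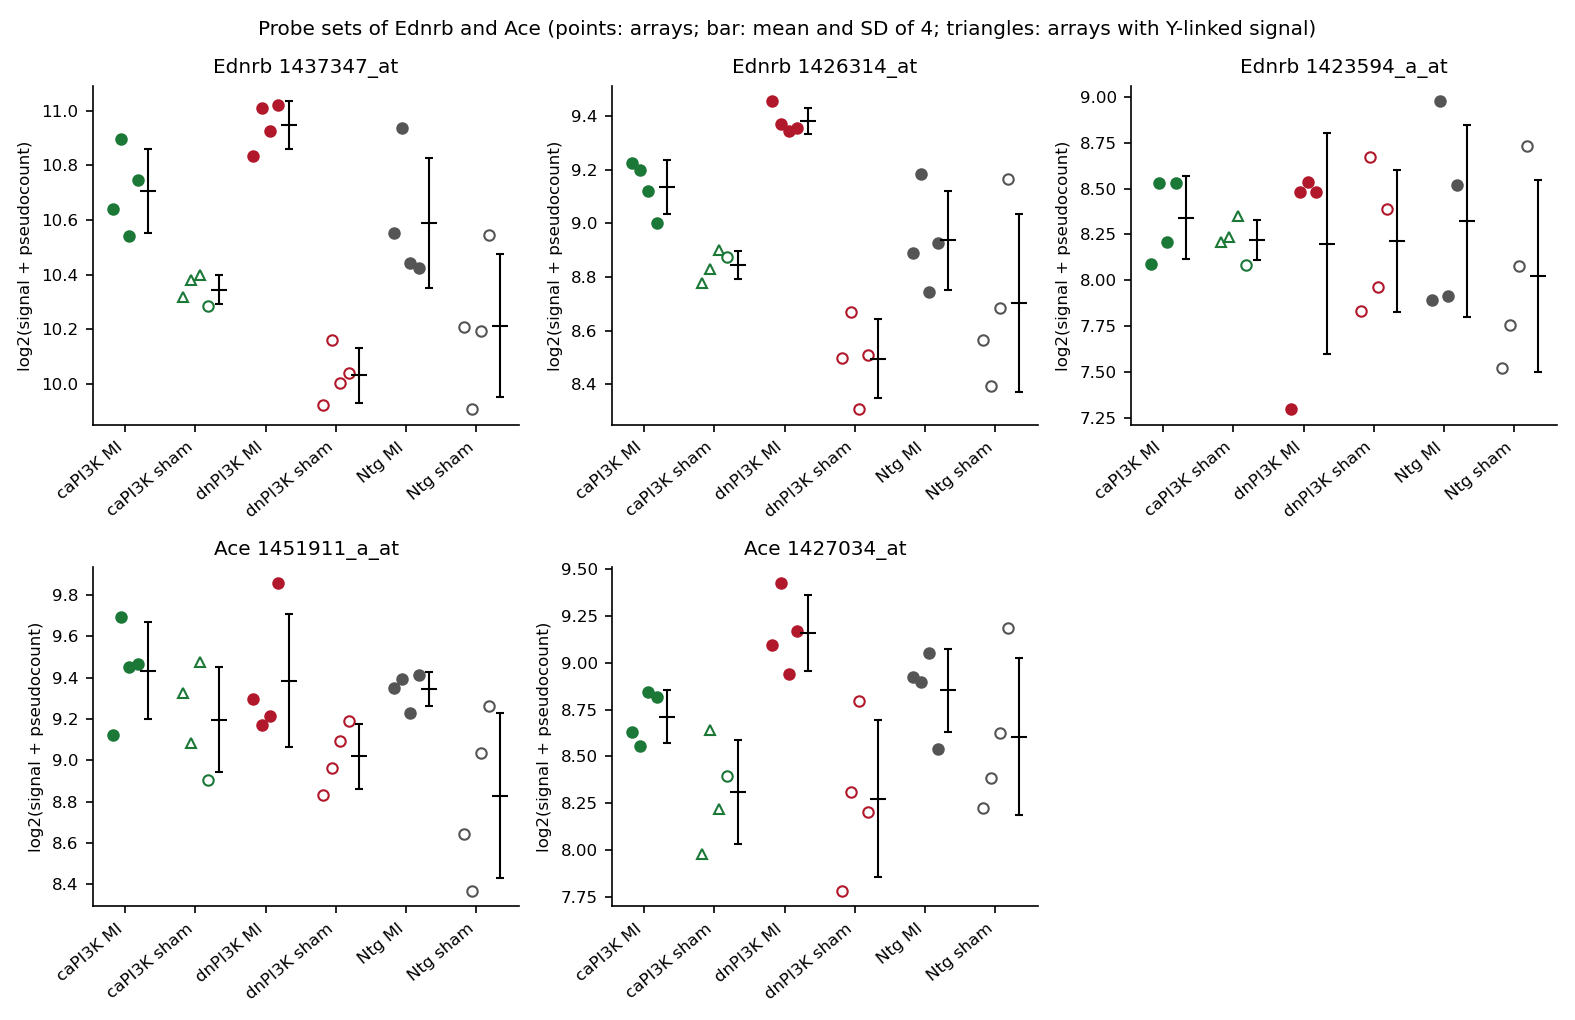
Log2 signal of the 3 Ednrb and 2 Ace probe sets on each array, by group; points, triangles and bars as in the plot of all members. The dnPI3K MI and sham arrays separate on Ednrb 1437347_at and 1426314_at and on Ace 1427034_at, and overlap on Ednrb 1423594_a_at and Ace 1451911_a_at.

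Adra1b, the alpha-1B receptor, varied most of the tested members, over 3.32 log2 units between the lowest and the highest array. In caPI3K hearts its levels were 8.18, 7.41, 7.80 and 7.65 after MI and 8.09, 8.19, 8.21 and 8.42 after sham. In dnPI3K hearts they were 5.76, 5.10, 5.85 and 6.65 after MI and 5.43, 6.61, 7.09 and 6.82 after sham. Ntg hearts had 6.01, 7.39, 6.86 and 6.99 after MI and 7.18, 7.79, 8.02 and 7.69 after sham. Within each operation the caPI3K arrays lay above all dnPI3K arrays, and in sham hearts the 3 genotypes did not overlap at all.

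After MI, Adra1b was 1.92 higher in caPI3K than in dnPI3K hearts (SE 0.35, limma adjusted p 0.0011), a call kept in all 21 alternatives. Some of these could not move the difference, since Adra1b has 1 probe set and leaving out sham arrays does not change MI levels. After sham Adra1b was 1.74 higher in caPI3K than in dnPI3K hearts (SE 0.35, adjusted p 0.0013). The sham call was lost without the arrays numbered 415 to 418 (+1.27, adjusted p 0.0589) and without the caPI3K sham arrays with Y-linked signal (+1.94, adjusted p 0.112, 1 caPI3K array left). Against Ntg the sham differences were +0.56 for caPI3K (SE 0.35, adjusted p 0.584) and −1.18 for dnPI3K (SE 0.35, adjusted p 0.109). After MI they were +0.95 for caPI3K (SE 0.35, adjusted p 0.888) and −0.97 for dnPI3K (SE 0.35, adjusted p 0.155). The caPI3K and dnPI3K hearts thus lay on opposite sides of Ntg after both operations, without a call on either side.

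On the dnPI3K arrays the Adra1b signal lay between the 19.9 and the 54 percentile of all probe sets, where the added constant compresses differences. The signal was under the 40th percentile on 3 of 4 dnPI3K MI, 1 of 4 dnPI3K sham and 1 of 4 Ntg MI arrays. No fold is therefore given for this gene. With a constant of 1 in place of 11.2 the difference of caPI3K against dnPI3K was +2.16 after MI and +1.89 after sham. With 50 it was +1.39 and +1.37. The differences of MI against sham were −0.47 in caPI3K, −0.64 in dnPI3K and −0.86 in Ntg hearts (SE 0.35 each). Only their average of −0.66 was called (SE 0.20, limma adjusted p 0.0274). It was −0.72 with a constant of 1 (adjusted p 0.0352) and −0.50 with 50 (adjusted p 0.0166). That average lost its call in 7 of 36 alternatives. They were the array number term (adjusted p 0.0652), the fit without the arrays with Y-linked signal (adjusted p 0.109), and those without Ntg sham replicate 3, Ntg MI replicate 1, dnPI3K sham replicate 3 or 4, or dnPI3K MI replicate 2 (adjusted p 0.0508 to 0.0581).

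**Figure D4:**
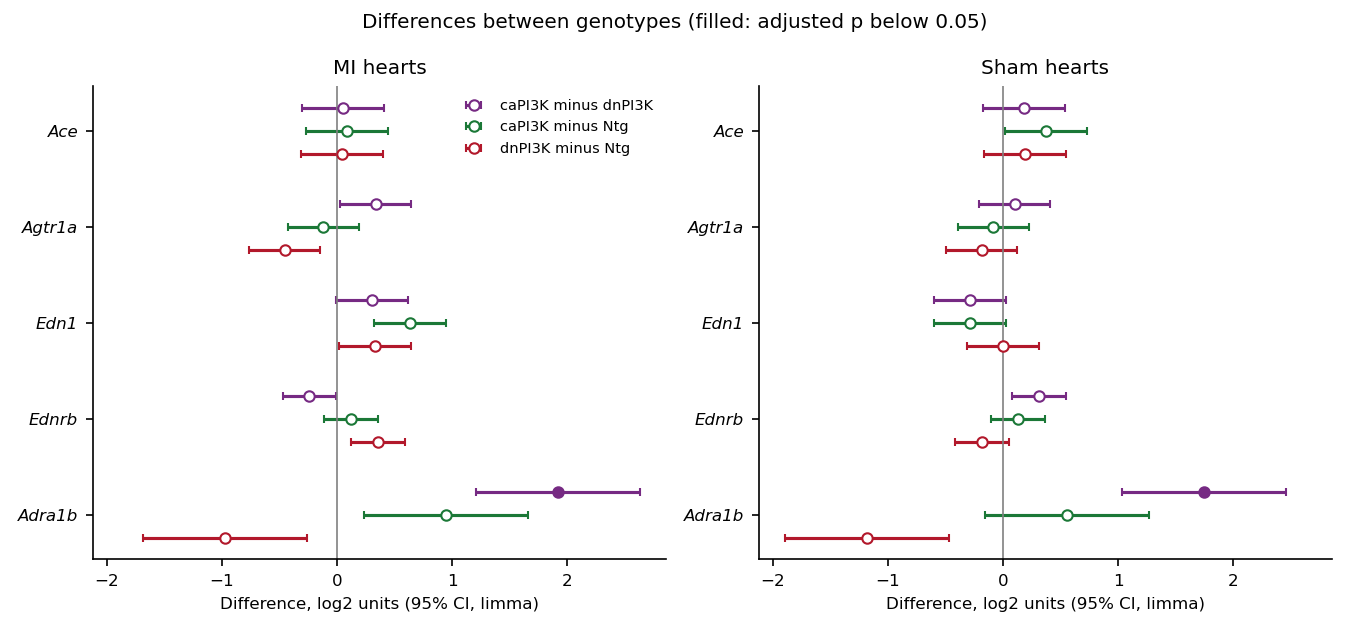
Differences between genotypes in log2 units for the 5 tested genes in MI hearts (left) and sham hearts (right), with 95% confidence intervals from limma. Only Adra1b between caPI3K and dnPI3K hearts is called, at +1.92 after MI and +1.74 after sham.

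The members' calls are set here against those of all tested genes. After MI in caPI3K hearts 1 of 5 members was called, against 1.11% of all genes. In dnPI3K hearts it was 2 of 5 against 9.42%, and in Ntg hearts 0 of 5 against 0.779%. At an unadjusted p below 0.05 were 3 of 5 members in Ntg hearts, against 12% of all genes. Averaged over genotypes 4 of 5 were called, against 13.6% of genes. For the differences of MI effects limma called 0 of 5 members and 0% of all genes. This held for caPI3K minus dnPI3K, caPI3K minus Ntg and dnPI3K minus Ntg. In that order 2, 1 and 1 members were at an unadjusted p below 0.05, against 10.2%, 5.52% and 7.6% of all genes. Between genotypes after MI, caPI3K against dnPI3K called 1 of 5 (4.21% of genes). There caPI3K against Ntg called 0 of 5 (0%) and dnPI3K against Ntg 0 of 5 (2.58%). Against Ntg MI hearts, 2 members for caPI3K and 4 for dnPI3K were at an unadjusted p below 0.05. The shares of all genes were 4.62% and 15.2%. Between genotypes after sham, caPI3K against dnPI3K called 1 of 5 (9.88% of genes). There caPI3K against Ntg called 0 of 5 (0.257%) and dnPI3K against Ntg 0 of 5 (1.12%). Against Ntg sham hearts, 1 member each was at an unadjusted p below 0.05. The shares of all genes were 11.2% for caPI3K and 10.8% for dnPI3K. With 5 members, chosen with earlier results of these data known, whether these counts set the genes apart from others was not tested. The comparisons share arrays, so their calls are not independent.

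Among the other renin-angiotensin genes, 9 of 15 listed were tested. The list and marker counts from here on are to be read against the shares of all genes called. After MI these were 1.11% in caPI3K, 9.42% in dnPI3K and 0.779% in Ntg hearts, and 13.6% averaged over genotypes. For caPI3K against dnPI3K they were 4.21% after MI and 9.88% after sham, and for dnPI3K MI against Ntg MI hearts 2.58%. Counts at an unadjusted p below 0.05 have larger shares of all genes beside them. After MI these were 12.2% in caPI3K, 21.9% in dnPI3K and 12% in Ntg hearts. For caPI3K against dnPI3K they were 16.1% after MI and 21.3% after sham. Mme, encoding neprilysin, which degrades angiotensin and natriuretic peptides, was 8.39, 7.64, 8.14 and 8.46 in dnPI3K MI hearts, against 9.01, 8.75, 9.13 and 9.12 in dnPI3K sham hearts. It fell in dnPI3K MI hearts, with no overlap and a difference of −0.84 (SE 0.20, limma adjusted p 0.0074), as 1 of 9 called. Averaged over genotypes 2 of 9 were called, Mme at −0.58 (SE 0.12, adjusted p 0.0009) and Nr3c2, the mineralocorticoid receptor, at −0.37 (SE 0.10, adjusted p 0.0106). The Nr3c2 call was lost without the arrays with Y-linked signal (adjusted p 0.0759) and without those numbered 415 to 418 (adjusted p 0.0976). The median of the list was −0.16, against 0.00 for all genes.

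Enpep encodes aminopeptidase A, which turns angiotensin II into angiotensin III. It was 10.48, 10.09, 10.57 and 10.62 in caPI3K MI hearts, against 9.27, 9.72, 9.85 and 10.00 in dnPI3K MI hearts. The same genotypes after sham were at 10.27, 10.25, 10.40 and 10.32 in caPI3K, against 9.36, 9.31, 9.61 and 9.60 in dnPI3K hearts. The groups did not overlap after either operation, and the differences were +0.73 after MI (SE 0.14, adjusted p 0.0021) and +0.84 after sham (SE 0.14, adjusted p 0.0002). Atp6ap2, the prorenin receptor, was lower in caPI3K than in dnPI3K sham hearts, at −0.31 (SE 0.09, adjusted p 0.0353), which made 2 of 9 called after sham and 1 of 9 after MI. With 1 caPI3K sham array left, the one lacking Y-linked signal, neither was called after sham: Enpep was at +0.85 (adjusted p 0.0733) and Atp6ap2 at −0.28 (adjusted p 0.532). Atp6ap2 also lost its call without arrays 415 to 418 (−0.31, adjusted p 0.12).

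Of 6 further endothelin genes 5 were tested, and only Ece2, an endothelin-converting enzyme, was called, at +0.27 after MI averaged over genotypes (SE 0.08, adjusted p 0.0314). That call was lost without the arrays with Y-linked signal (adjusted p 0.209), without arrays 415 to 418 (adjusted p 0.0816) and without dnPI3K MI replicate 1 (adjusted p 0.0509). In single genotypes limma called 0 of 5 after MI, with 1 at an unadjusted p below 0.05 in caPI3K and 0 in dnPI3K and Ntg hearts.

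Of 16 further adrenergic and catecholamine genes 9 were tested. Maob, monoamine oxidase B, which oxidizes monoamines, was 10.38, 10.62, 11.09 and 10.80 in dnPI3K MI hearts, against 11.36, 11.15, 11.35 and 11.42 in dnPI3K sham hearts. It was lower on all dnPI3K MI arrays, at −0.60 (SE 0.12, adjusted p 0.0024), and averaged over genotypes at −0.41 (SE 0.07, adjusted p 0.0002), as 1 of 9 called in each. In caPI3K hearts Maob was higher than in dnPI3K hearts, by 0.92 after MI (SE 0.12, adjusted p 2.7e-05) and 0.67 after sham (SE 0.12, adjusted p 0.0006). The sham difference was +0.73 without the arrays with Y-linked signal, with an adjusted p of 0.0762.

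Dbh, dopamine beta-hydroxylase, which makes noradrenaline, was 9.72, 9.30, 9.66 and 9.50 in caPI3K sham hearts, against 8.80, 8.62, 8.56 and 8.60 in dnPI3K sham hearts. It was higher on every caPI3K sham array, by 0.90 (SE 0.15, adjusted p 0.0002), so that 2 of 9 were called in that comparison. Dbh was at +0.86 with an adjusted p of 0.0923 when the arrays with Y-linked signal were left out. In dnPI3K MI against Ntg MI hearts 2 of 9 were called, Maob at −0.75 (SE 0.12, adjusted p 0.001) and Maoa, monoamine oxidase A, at +0.68 (SE 0.17, adjusted p 0.0275). Without dnPI3K MI replicate 1, Maoa was at +0.63 with an adjusted p of 0.0743.

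**Figure D5:**
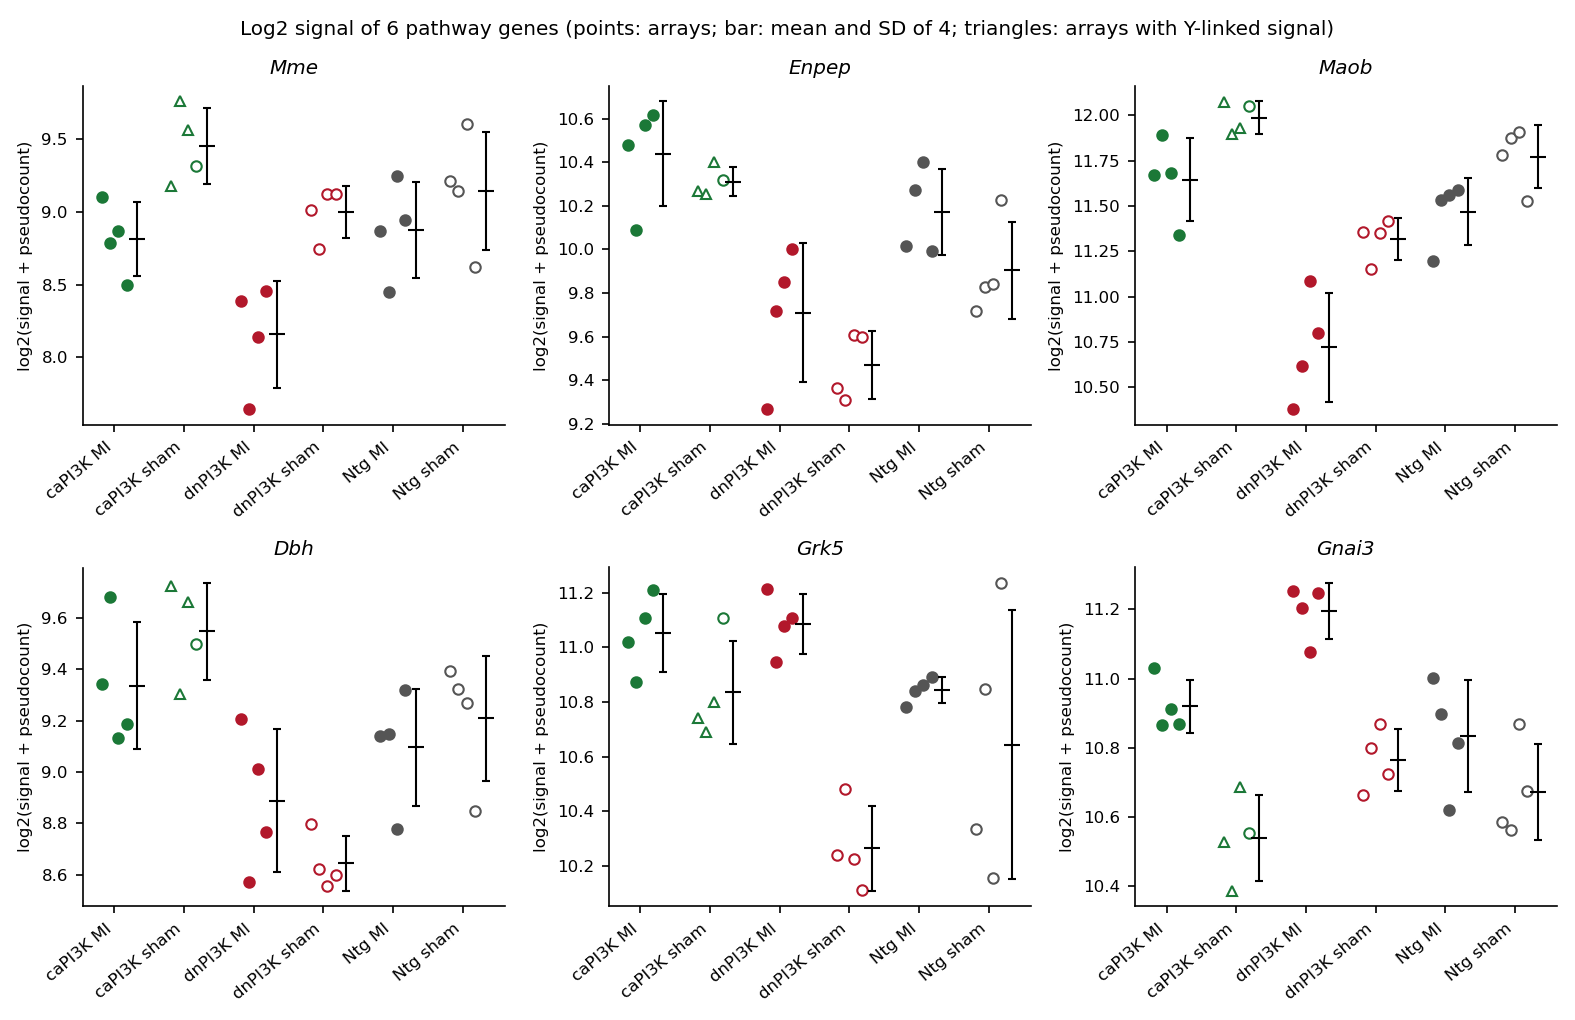
Log2 signal of Mme, Enpep, Maob, Dbh, Grk5 and Gnai3 on each array, by group; points, triangles and bars as in the plot of all members. Mme and Maob are lowest in dnPI3K MI hearts, where Gnai3 is highest (11.08 to 11.25).

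Downstream of these receptors, 34 of 35 listed kinases, arrestins, G proteins and effectors were tested. Grk5, a kinase that desensitizes receptors, was 11.21, 10.95, 11.08 and 11.11 in dnPI3K MI hearts, against 10.24, 10.48, 10.22 and 10.11 in dnPI3K sham hearts. Gnai3, an inhibitory G protein subunit, was 11.25, 11.20, 11.08 and 11.25 after MI, against 10.66, 10.80, 10.87 and 10.72 after sham in the same genotype. Both separated fully, Grk5 by +0.82 (SE 0.15, adjusted p 0.0008) and Gnai3 by +0.43 (SE 0.09, adjusted p 0.0019). With Prkce, protein kinase C epsilon, at −0.37 (SE 0.12, adjusted p 0.0383), 3 of 34 were called there, against 9.42% of all genes. In caPI3K hearts Gnai3 was the only one called, at +0.38 (SE 0.09, adjusted p 0.0263, or +0.36 with 0.585 without the arrays with Y-linked signal), and in Ntg hearts limma called 0 of 34, with 5 at an unadjusted p below 0.05.

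Averaged over genotypes 8 of these 34 genes rose and 3 fell after MI, with 13.6% of all genes called. The 4 of smallest p all rose: Gnai3 by 0.32 (SE 0.05), the protein kinase C gene Prkcd by 0.40 (SE 0.08), Grk5 by 0.41 (SE 0.09) and Prkar1a, a regulatory subunit of protein kinase A, by 0.19 (SE 0.04). Of these 11 calls 5 were lost without the arrays with Y-linked signal, that of Grk5 among them (+0.32, adjusted p 0.0724), and 4 without arrays 415 to 418. Between caPI3K and dnPI3K sham hearts 6 of 34 were called, 3 in each direction. Those of smallest p were Adcy6, a main adenylyl cyclase of heart muscle, at −0.67 (SE 0.12), the G protein gene Gna12 at +0.42 (SE 0.09), Prkar1a at −0.33 (SE 0.08) and Gnai1 at −0.43 (SE 0.10). Leaving out the arrays with Y-linked signal, 5 of these 6 calls were lost and that of Gnai1 kept, with Adcy6 at −0.60 (adjusted p 0.174), Gna12 at +0.22 (adjusted p 0.603) and Prkar1a at −0.42 (adjusted p 0.109). Without arrays 415 to 418, 3 were lost, among them Gnai1 (−0.30, adjusted p 0.206) and Prkar1a (−0.31, adjusted p 0.0788). After MI the same genotypes had 4 of 34 called, Adcy6 at −0.47 (SE 0.12), Prkar1a at −0.33 (SE 0.08), Gna12 at +0.46 (SE 0.09) and Prkaca, the catalytic subunit of protein kinase A, at +0.26 (SE 0.07). Without dnPI3K MI replicate 1, Adcy6 (−0.36, adjusted p 0.122) and Prkaca (+0.25, adjusted p 0.0794) were not called, nor was Prkaca without the arrays with Y-linked signal (adjusted p 0.0508). In dnPI3K MI against Ntg MI hearts 3 of 34 were called, Gnai3 at +0.36 (SE 0.09), Plcb4, a phospholipase C, at +0.31 (SE 0.08) and Gna12 at −0.45 (SE 0.09). Gnai3 was not called there without dnPI3K MI replicate 1 (+0.34, adjusted p 0.0553). The remaining comparisons called none of the pathway genes by limma, with at most 6 genes of a list at an unadjusted p below 0.05. Those 6 of 34 were in dnPI3K against Ntg sham hearts, where 10.8% of all genes were below it.

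Cell type markers moved with some of these results. Of 10 fibroblast markers limma called 3 as higher after MI in caPI3K, 5 in dnPI3K and 4 in Ntg hearts, and 8 averaged over genotypes. Without the arrays with Y-linked signal these counts were 0, 5, 3 and 7, and without arrays 415 to 418 they were 5, 3, 0 and 7. Their summed signal was 127909 to 141376 in caPI3K MI against 98547 to 111594 in caPI3K sham hearts, 142798 to 169222 in dnPI3K MI against 116971 to 130876 in dnPI3K sham hearts, and 130183 to 141541 in Ntg MI against 98314 to 142737 in Ntg sham hearts. The highest Ntg sham value was that of replicate 4. The median difference of the fibroblast list after MI was +0.64 in caPI3K, +0.63 in dnPI3K and +0.57 in Ntg hearts. Ednrb and Ace were also higher after MI in each genotype, called only for Ednrb in dnPI3K hearts. Edn1 differed by +0.72 in caPI3K, +0.13 in dnPI3K and −0.20 in Ntg hearts. The part of fibroblasts in these levels was not tested.

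Of 11 cardiomyocyte markers 7 were called as lower after MI averaged over genotypes, with a median of −0.17 over the list, where Agtr1a and Adra1b fell. Without the arrays with Y-linked signal 1 of the 11 was called, and without arrays 415 to 418, 2. In single genotypes 0, 1 and 0 were called in caPI3K, dnPI3K and Ntg hearts, with 1, 7 and 7 at an unadjusted p below 0.05. For caPI3K against dnPI3K, where Adra1b differed, limma called 0 of 11 after MI and 0 of 11 after sham, with 0 and 4 at an unadjusted p below 0.05. Other markers were called as lower there: after MI 1 of 10 fibroblast and 2 of 10 mural markers, and after sham 2 of 10 fibroblast, 1 of 10 endothelial and 1 of 5 atrial muscle markers. The atrial one was Nppa, encoding atrial natriuretic peptide, at −1.86 (SE 0.27). Without dnPI3K MI replicate 1 the mural count after MI was 0, and without the arrays with Y-linked signal the fibroblast and endothelial counts after sham were 0. Of 10 endothelial markers 0 were called in any genotype after MI, with 1, 2 and 0 at an unadjusted p below 0.05 in caPI3K, dnPI3K and Ntg hearts. The endothelial sum was 16591 to 20621 in caPI3K MI against 15379 to 18548 in caPI3K sham hearts, and 18732 to 21170 in dnPI3K MI against 17697 to 19340 in dnPI3K sham hearts. Of 10 mural markers 1 was called as higher and 1 as lower in dnPI3K MI than in dnPI3K sham hearts. Of 8 macrophage markers 1 was called as higher after MI in dnPI3K hearts and 2 averaged over genotypes, and both counts were 0 without arrays 415 to 418. The averaged count was also 0 without the arrays with Y-linked signal, and the dnPI3K count was 2 without dnPI3K MI replicate 1. Of 5 atrial muscle markers 1 was called as higher after MI in caPI3K and 2 in Ntg hearts. Nppa was at +1.32 in caPI3K hearts, +1.28 in Ntg hearts and +0.84 averaged over genotypes, but not called in dnPI3K hearts. In dnPI3K against Ntg sham hearts Nppa was already higher, by 1.65 (SE 0.27, limma adjusted p 0.0009). The atrial sum was 57658 to 64293 in dnPI3K MI against 59513 to 70481 in dnPI3K sham hearts. The caPI3K count was 0 without the arrays with Y-linked signal, and the Ntg count was 1 without those, 0 without arrays 415 to 418 and 4 without Ntg sham replicate 4. In dnPI3K MI against Ntg MI hearts, where Ednrb is given above, 2 of 10 endothelial markers were called as higher, Vwf at +0.72 (SE 0.15) and Emcn at +0.34 (SE 0.09), with 1 of 10 fibroblast markers higher and 2 of 5 atrial markers lower. Of 5 mast cell and 5 Schwann and neural markers limma called 0 after MI, with at most 2 at an unadjusted p below 0.05. The part of these cells in the members' levels was not tested.

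Across all 24 arrays, and so across group differences shared by many genes, Agtr1a and Ednrb ran opposite to each other (r = −0.76), Ace went with Ednrb (r = 0.70) and against Agtr1a (r = −0.60), and the other pairs lay between −0.42 and 0.48. The genes most like Ednrb were Mapre1 (r = 0.89), Mfap5 (r = 0.88) and Fxyd6 (r = 0.88), and those most like Agtr1a were Dgat2 (r = 0.89), Nudt7 (r = 0.88) and Ces1d (r = 0.87). Adra1b was nearest to Creg1, Grb14 and Lrtm1 (r = 0.87 each), Ace to Actn1 (r = 0.81), Pea15a (r = 0.81) and Tspan17 (r = 0.80). Edn1 had looser neighbours, Litaf (r = 0.71), Ada (r = 0.70) and Tcea1 (r = 0.70). These values describe the arrays, which share groups and scaling, and carry no test.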

How the data were processed

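The deposited values are signal intensities on a linear scale, made by the authors with MAS5 per the submitters' processing notes; its version is not stated. The trimmed means show that the arrays had been scaled to 500, so no further normalization was applied. Signals became log2(signal + 11.2), which compresses changes of dim genes. Probe sets above the 40th percentile of their array on at least 4 arrays were kept, control probe sets left out, and each gene represented by its brightest probe set. A model with 6 group means was fitted in limma 3.58.1 (R 4.3.3; intensity trend, 18 residual degrees of freedom), with Benjamini-Hochberg adjustment over 14763 genes and 13 comparisons read from it. Plots used matplotlib 3.10.9 (Python 3.11.15). The code was tested on simulated data.

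One tag of the caPI3K MI samples is named caPI3K-sham, but titles and descriptions say MI, which was used. Gene symbols come from the platform annotation, and coordinates and promoters from RefSeq's GRCm38.p6 tables. The members and gene lists were chosen with earlier results of these data known. Named are all members, the called genes of 4 pathway lists (where over 4 of a list were called, the 4 of smallest p) and the 3 genes most correlated with each member. Replicate numbers follow accession order and pair nothing. The number of arrays limits the precision. Alternatives changed the filter, the pseudocount, the normalization, the choice of probe set, the empirical Bayes step, the arrays and the groups fitted.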

Additional observations from a re-analysis of the deposited data

Results flagged for a closer look

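Over 54 groups of 4 arrays, counting every probe set of the members, 2 held an array far from the other 3; chance flags about 1 group in 20. On the Agt probe set, dnPI3K MI replicate 2 read 6.32 log2 units while the other dnPI3K MI arrays read 4.66 to 4.84, all of them dim signals. On the Ednrb probe set 1423594_a_at, dnPI3K MI replicate 1 read 7.30 while the others read 8.48 to 8.54. That array has the high median signal of 151, and on the Ednrb probe set used it read 10.83, in a group that ran to 11.02. The part of that median in the low reading was not tested.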

How the results depend on the processing

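Of 1560 recomputed member values, 1482 kept their direction and side of the threshold, 9 gained and 16 lost a call, and 53 changed sign, all of them differences that were not called. Ednrb after MI in dnPI3K hearts, Ednrb and Agtr1a averaged over genotypes, and Adra1b in caPI3K against dnPI3K MI hearts kept their calls in every alternative run. None of these used Ednrb probe set 1423594_a_at alone, on which the rise in dnPI3K hearts was not seen. Agtr1a and Adra1b have 1 probe set each, so settings on probe sets could not move their values. The number of members called after MI in caPI3K hearts was 0 with the array number term, 0 without the arrays with Y-linked signal and 2 with those groups alone; in caPI3K against dnPI3K sham hearts it was 0 without arrays 415 to 418, 0 without the arrays with Y-linked signal and 2 with those groups alone. In dnPI3K hearts after MI it was 3 with the mean of the probe sets or the next brightest one, where Ace was called (+0.63, adjusted p 0.0118; +0.88, adjusted p 0.0065). For the difference of MI effects caPI3K minus dnPI3K it was 1 with those groups alone. Leaving out 1 replicate gave 0 to 1 called after MI in caPI3K, 1 to 2 in dnPI3K and 0 to 3 in Ntg hearts, and 0 to 1 in dnPI3K against Ntg MI hearts (Ednrb, without Ntg MI replicate 2). After the data had been seen, called pathway genes were refitted without the arrays that stand apart: 24 of 42 calls were kept without the arrays with Y-linked signal, 32 of 42 without arrays 415 to 418, 15 of 15 without Ntg sham replicate 4 and 26 of 31 without dnPI3K MI replicate 1, and none changed sign. The causes were not tested. Without the arrays with Y-linked signal 1 caPI3K sham array is left. The share of all genes called in each of these refits is not given here. The counts of calls kept or lost are thus not a result about these genes. Dim signals limit what Agt, and Adra1b on the dnPI3K arrays, can show. No paired analysis was possible because the labels give no shared replicate numbers.

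The sign changes were these, in log2 units. With the mean of a gene's probe sets, Ace was −0.20 for caPI3K against dnPI3K MI, −0.026 for caPI3K against Ntg MI and −0.070 for dnPI3K against Ntg sham hearts, and 0.24 for the dnPI3K minus Ntg difference of MI effects. With the next brightest probe set, Ace was −0.45 for caPI3K against dnPI3K MI, −0.14 for caPI3K against Ntg MI, −0.30 for caPI3K against Ntg sham and −0.33 for dnPI3K against Ntg sham hearts, and 0.16 (caPI3K minus Ntg) and 0.64 (dnPI3K minus Ntg) for differences of MI effects. For Ednrb the caPI3K minus Ntg difference of MI effects turned to 0.057 with the next brightest probe set, 0.020 with quantile normalization, 0.039 with the array number term, 0.14 without arrays 415 to 418 and 0.046 without the arrays with Y-linked signal. Without arrays 415 to 418, differences of MI effects were 0.041 for Ace (caPI3K minus Ntg), 0.049 for Ace (dnPI3K minus Ntg) and −0.070 for Adra1b (dnPI3K minus Ntg). In sham hearts that setting gave Agtr1a −0.072 for caPI3K against dnPI3K, and Agtr1a 0.20 and Ednrb −0.025 for caPI3K against Ntg. For dnPI3K against Ntg sham hearts it gave Ace −0.0084, Agtr1a 0.27 and Edn1 −0.22. Without the arrays with Y-linked signal, differences of MI effects were 0.16 for Ace and −0.0185 for Adra1b (caPI3K minus dnPI3K) and 0.014 for Ace (caPI3K minus Ntg), and in caPI3K sham hearts Ace was −0.12 against dnPI3K and Agtr1a 0.094 against Ntg.

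Leaving out 1 replicate turned the sign of these within ranges. Differences of MI effects ran for caPI3K minus dnPI3K from −0.23 to 0.028 (Ace) and −0.070 to 0.53 (Adra1b), for caPI3K minus Ntg from −0.18 to 0.15 (Agtr1a) and −0.12 to 0.10 (Ednrb), and for dnPI3K minus Ntg from −0.31 to 0.0025 (Ace) and −0.14 to 0.46 (Adra1b). Between genotypes Ace ran from −0.039 to 0.21 in caPI3K against dnPI3K MI and −0.12 to 0.11 in dnPI3K against Ntg MI hearts, Agtr1a from −0.27 to 0.064 in caPI3K against Ntg sham and Edn1 from −0.067 to 0.074 in dnPI3K against Ntg sham hearts.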
